A study of Mus musculus with 4 samples.

Results

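The epithelial microRNAs (miRNAs) miR-200a, miR-200b, miR-200c, miR-141, miR-429, miR-203, miR-205 and miR-375 were examined as trace signals in mouse aorta. They were chosen by name, as 10 of the 1152 entries listed for each library: miR-200a-3p, miR-200a-5p, miR-200b-3p, miR-200b-5p, miR-200c-3p, miR-141-3p, miR-429-3p, miR-203-3p, miR-205-5p and miR-375-3p. The study sequenced small RNA (18 to 30 nucleotides) of aortas from wild type C57BL/6 mice aged 12 weeks, with 2 libraries labelled CKD (chronic kidney disease) and 2 labelled Sham, each pooled from 4 samples. In the labelled model of vascular calcification, parts of the left kidney and, 1 week later, the right kidney were removed, and a 2% phosphate diet with 0.45% NaCl in the water followed for 4 weeks. CKD and Sham libraries carry the same wording of this treatment, and what was done to Sham mice instead, in surgery and diet, is not given. Whether the pools of a group were prepared independently is also unstated, so each p-value reflects the spread between pooled libraries, which may be technical.

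The miR-200 family maintains the epithelial state. Its members repress the transcription factors Zeb1 and Zeb2, which in turn repress E-cadherin and the miR-200 genes themselves, so that epithelial cells hold much of the family and mesenchymal cells little. miR-203 is known from the skin, where it limits the stem cell potential of keratinocytes by repressing p63, and miR-205 from stratified and glandular epithelia, where it also represses Zeb1 and Zeb2. miR-375 is the characteristic miRNA of pancreatic islets and is also found in several epithelia. The vessel wall itself is built of smooth muscle, endothelium and fibroblasts.

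The family falls into 2 groups by its seed, the bases 2 to 8 that select target mRNAs, and these sequences are shown because the groups differ within the seed by a single base. Capitals mark the seed in each mature RefSeq sequence (GRCm38.p6), written 5′ to 3′. The first 3 share one seed, the next 2 share another, and the last 2 lie outside the family.
miR-200b-3p: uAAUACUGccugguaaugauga
miR-200c-3p: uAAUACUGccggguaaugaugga
miR-429-3p: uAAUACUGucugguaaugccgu
miR-200a-3p: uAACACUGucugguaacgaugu
miR-141-3p: uAACACUGucugguaaagaugg
miR-203-3p: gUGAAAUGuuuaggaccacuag
miR-205-5p: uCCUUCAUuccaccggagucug

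Sequence was matched for 9 of the 10 members, all but miR-375-3p. Among listed entries with a RefSeq mature sequence, no miRNA outside the members carries any of these seeds. Counted from the 5′ end, miR-200a-3p differs from miR-141-3p at 2 positions (C17A and U22G). miR-200b-3p likewise differs from miR-200c-3p at 2 of 22 aligned positions (U11G and A22G). The difference between the 2 seeds is C4U, read from miR-200a-3p to miR-200b-3p. How reads that match more than 1 miRNA were assigned is not stated, so the split within these pairs is uncertain.

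The genes lie at 5 places in the genome, with coordinates given for the hairpins in GRCm38. Mir200b (chr4:156055681-156055750), Mir200a (chr4:156054896-156054985) and Mir429 (chr4:156053905-156053987) stand within 1846 bases on the minus strand. All 3 lie in an intron of the protein-coding gene Ttll10, and within the noncoding transcript Gm13648, of which Mir429 overlaps an exon. Mir200c (chr6:124718322-124718390) and Mir141 (chr6:124717914-124717985), on the minus strand, stand within 477 bases in an intron of the noncoding gene Gm15884, and Mir141 also overlaps an exon of Gm29008. Mir375 (chr1:74900658-74900721, minus strand) overlaps no other annotated gene. Mir203 (chr12:112130880-112130955, plus strand) overlaps no other GENCODE gene, while RefSeq places the hairpin of miR-203b within it on the opposite strand. Mir205 (chr1:193507463-193507530, minus strand) overlaps an exon of the noncoding gene 4631405K08Rik.

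All 10 miRNAs together were a trace of the aortic pool. They held 4494 and 2685 reads in the CKD libraries, against 944 and 997 reads in the Sham libraries, out of 16658810 to 17532748 reads per library. Their summed level was 256 and 161 counts per 1000000 reads (CPM) in CKD and 53.9 and 59.1 CPM in Sham. That is 0.0256% and 0.0161% of all reads in CKD, and 0.00539% and 0.00591% in Sham. The highest rank any of them reached among the 1152 entries was 129 in CKD and 153 in Sham, both for miR-203-3p. The labelled tissue was well marked, with smooth muscle miR-143-3p alone at 41.1% and 40.8% of reads in CKD, and 79.8% and 72.5% in Sham. In such bulk samples, fewer cells of a type and less RNA per cell cannot be told apart.

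**Figure D1:**
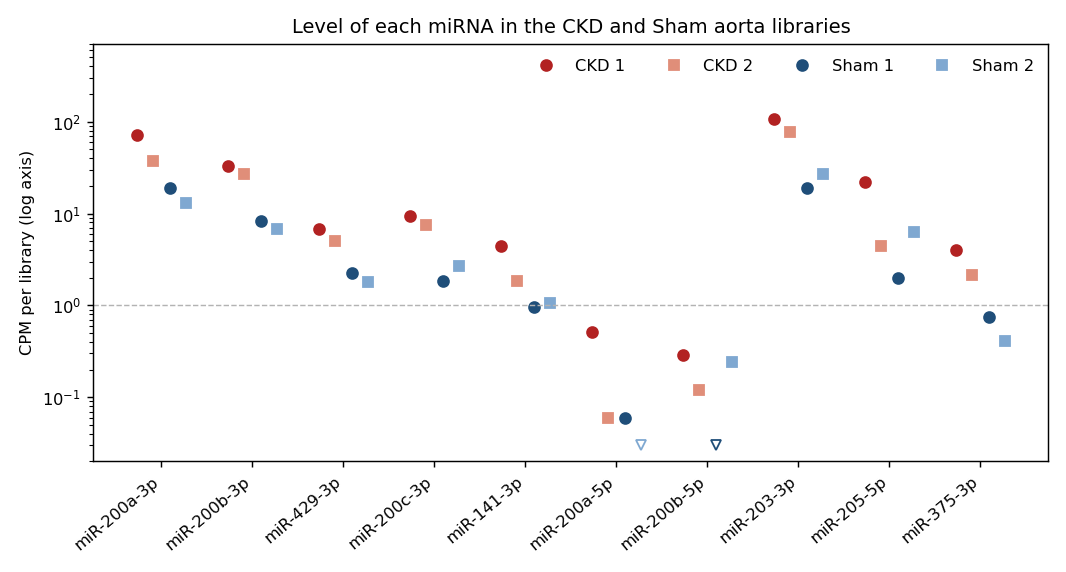
CPM of each of the 10 miRNAs in each library on a log axis, with CKD libraries in red and Sham libraries in blue. Open triangles mark libraries with no reads, and the dashed line is 1 CPM. For 7 miRNAs, each with a mean of at least 1 CPM, both CKD points lie above both Sham points. The same holds for 91.2% of all 479 entries with such a mean. The points of miR-205-5p and miR-200b-5p interleave, and miR-200a-5p had 1 read in both the second CKD and the first Sham library.

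Most other entries took a larger share of reads in CKD than in Sham, and the part of miR-143-3p in this was not tested beyond leaving it out of the totals, which gave a median log2 difference of 0.25 over all entries. With each library summing to 1000000 CPM, the median log2 difference between CKD and Sham was 1.34 over the 479 entries with a mean of at least 1 CPM, and 82.9% of those entries rose and 1.04% fell by limma with Benjamini-Hochberg adjustment. Differences are therefore given both on this deposited scale and after trimmed-mean (TMM) scaling, which centres most miRNAs on no change. After TMM scaling the median was 0.00, 1.88% of entries rose and 5.85% fell by limma. Of the 10 members 8 passed the filter, and the 2 that did not were miR-200a-5p and miR-200b-5p. The limma differences of entries, and their medians, are on the log2(CPM + 1) scale, which understates the change of low entries. Log2 ratios of sums and within libraries had no CPM added unless stated, and edgeR and DESeq2 used read counts.

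On the deposited scale 7 of the 8 tested epithelial miRNAs rose in CKD, close to the background share of 82.9%, and none rose or fell after TMM scaling. The median log2 difference of the 8 was 1.44 on the deposited scale, beside 1.34 for all entries, and 0.19 after TMM scaling, beside 0.00. On the deposited scale 5 of the 8 lay above that median, as 49.9% of all entries did. The deposited differences ran from 0.96 (miR-141-3p) to 1.95 (miR-203-3p), placing the 8 between the 55th and 362nd highest of 479. After TMM scaling they ran from -0.06 (miR-205-5p) to 0.43 (miR-375-3p). No tested member reached an unadjusted p under 0.05 there by limma, nor by the quasi-likelihood test of edgeR on read counts recovered from the CPM, and neither test called any after adjustment. Over all entries edgeR called 1.67% higher and 4.80% lower. DESeq2, which called 5.85% of entries higher and 10.2% lower, called 0 members, gave no adjusted p for 2, and had 1 under an unadjusted p of 0.05 (miR-203-3p). Without the first CKD library the deposited median log2 difference of the 8 was 1.10, beside 1.28 for all entries. Without the second CKD library it was 1.84, beside 1.41. It was 1.42 without the first Sham library, beside 1.10, and 1.56 without the second, beside 1.57. Such fits leave 1 library in a group.

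**Figure D2:**
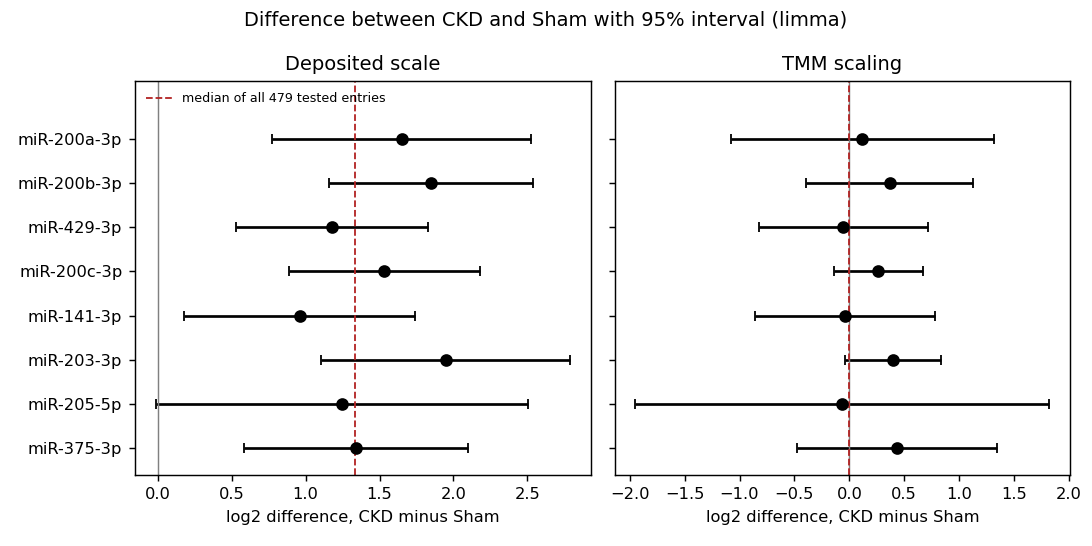
The log2 difference, CKD minus Sham, of the 8 tested miRNAs on the deposited scale (left) and after TMM scaling (right). Points are limma estimates, bars are 95% intervals, and the dashed line is the median of all 479 tested entries. After TMM scaling every interval includes 0.

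**Figure D3:**
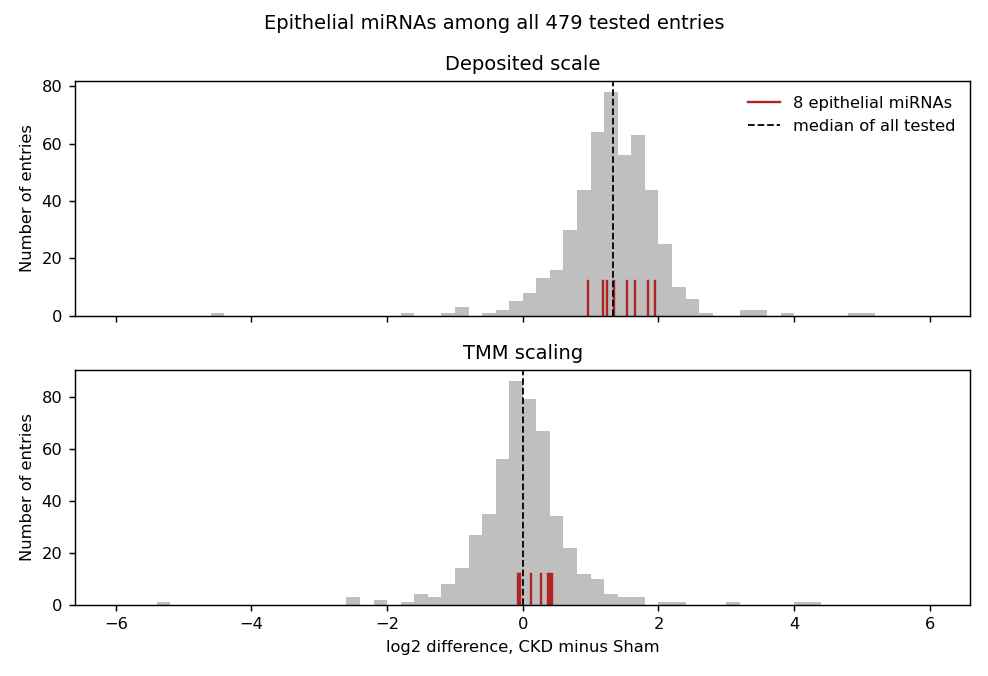
Histograms of the log2 difference, CKD minus Sham, for all 479 tested entries on the deposited scale (top) and after TMM scaling (bottom), with the number of entries on the vertical axis. Red lines mark the 8 epithelial miRNAs, which lie in the body of both distributions, and the dashed line is the median.

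Among the seed group of miR-200a, which shares its seed with miR-141, miR-200a-3p was the more abundant. It had 70.9 and 37.0 CPM in the CKD libraries, against 18.7 and 13.1 CPM in the Sham libraries. The groups did not overlap, although the first CKD library held 1.91 times the level of the second. On the deposited scale miR-200a-3p rose by 1.65 (SE 0.40, limma adjusted p = 0.0036). After TMM scaling the difference was 0.12 (95% interval -1.08 to 1.31, limma adjusted p = 0.90). miR-141-3p had 4.39 and 1.86 CPM in CKD and 0.97 and 1.07 CPM in Sham. Its deposited rise of 0.96 (SE 0.36, limma adjusted p = 0.027) was the smallest of those called, and was lost without the first CKD library, at a difference of 0.50 (limma adjusted p = 0.086). It was also lost without the first Sham library, at 0.92 (limma adjusted p = 0.17), and without the second, at 0.99 (limma adjusted p = 0.13). After TMM scaling miR-141-3p lay at -0.04 (95% interval -0.86 to 0.78, limma adjusted p = 0.94).

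The other seed group holds miR-200b, miR-200c and miR-429, of which miR-200b and miR-200c are the members best known for repressing Zeb1. miR-200b-3p had 32.8 and 26.7 CPM in the CKD libraries, against 8.22 and 6.81 CPM in the Sham libraries. The groups did not overlap on this scale, as in 91.2% of all tested entries. After TMM scaling the levels were 18.1 and 16.1 in CKD and 17.2 and 9.79 in Sham, and the groups overlapped. On the deposited scale miR-200b-3p rose by 1.85 (SE 0.32), with a limma adjusted p of 0.0010, and it lay at 0.37 after TMM scaling (95% interval -0.39 to 1.13, limma adjusted p = 0.44). miR-200c-3p had 9.30 and 7.44 CPM in CKD and 1.83 and 2.67 CPM in Sham, and its deposited rise was 1.53 (SE 0.30, limma adjusted p = 0.0015). After TMM scaling its levels were 5.14 and 4.48 in CKD and 3.82 and 3.84 in Sham, a difference of 0.26 (95% interval -0.14 to 0.67, limma adjusted p = 0.33). The third of this group, miR-429-3p, had 6.79 and 4.98 CPM in CKD and 2.28 and 1.78 CPM in Sham. Its deposited rise was 1.18 (SE 0.30, limma adjusted p = 0.0042), and it lay at -0.05 after TMM scaling (95% interval -0.83 to 0.72, limma adjusted p = 0.92).

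The calls of miR-200a-3p, miR-200b-3p, miR-429-3p and miR-203-3p were also lost without the first CKD library, as were most calls over all entries. The deposited difference was then 1.19 for miR-200a-3p (1.65 with all libraries) and 1.70 for miR-200b-3p (1.85). It was 0.99 for miR-429-3p (1.18) and 1.72 for miR-203-3p (1.95). That fit left 1 CKD library and took its spread from the Sham libraries. Without the second CKD library these differences were, in the same order, 2.11, 1.99, 1.37 and 2.18. The first CKD library held the higher CPM of the 2 CKD libraries for all 10 members.

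Between their 2 arms, the hairpins of miR-200a and miR-200b gave reads almost entirely from the 3p arm. Both hairpins are shown because they carry both listed arms, with the mature 5p and then the 3p sequence in capitals (RefSeq, GRCm38.p6, minus strand of chromosome 4).
Mir200a: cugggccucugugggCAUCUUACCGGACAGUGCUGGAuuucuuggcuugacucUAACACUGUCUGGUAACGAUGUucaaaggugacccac
Mir200b: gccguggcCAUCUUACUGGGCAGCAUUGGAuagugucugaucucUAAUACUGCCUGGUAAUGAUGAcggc

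The 3p arms of both together had 1818 and 1061 reads in the CKD libraries, against 472 and 336 reads in the Sham libraries. Their 5p arms, which share the seed AUCUUAC, had 14 and 3 reads in CKD and 1 and 4 reads in Sham. By hairpin, miR-200a-5p had 9 and 1 reads in CKD and 1 and 0 reads in Sham, and miR-200b-5p had 5 and 2 reads in CKD and 0 and 4 reads in Sham. A count of 0 allows up to 0.171 CPM in the first Sham library and 0.178 CPM in the second, at a floor of 3 reads. No difference in the 5p arms was detectable at this depth. The log2 ratio of 3p to 5p levels, taken from the rounded CPM, was 7.02 and 8.47 in CKD and 8.81 and 6.37 in Sham. The groups thus overlapped (difference 0.15, exact two-sided permutation p = 1). With 1 CPM added to each term, which is more than any level of the 5p arms, the difference was 1.52 (exact two-sided permutation p = 0.333). With 2 libraries against 2, the smallest p this test allows is 0.333.

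Ratios within a library do not depend on how libraries are scaled. With no CPM added, 7 were computed, 6 between members and 1 of all members to miR-126a-3p. In none of these did the groups separate (exact two-sided permutation p of 0.667 to 1, and 1 for each after adjustment over the 7). The chromosome 6 cluster (miR-200c-3p and miR-141-3p) stood at 0.124 and 0.135 of the chromosome 4 cluster (miR-200b-3p, miR-200a-3p and miR-429-3p) in CKD, and at 0.0958 and 0.173 in Sham. The mean log2 ratio was -2.95 ± 0.09 in CKD and -2.96 ± 0.60 in Sham (SD, n = 2 each), with an exact two-sided permutation p of 1. The seed group of miR-200b, miR-200c and miR-429 stood at 0.649 and 1.00 of that of miR-200a and miR-141 in CKD, and at 0.626 and 0.795 in Sham. Here the log2 ratios averaged -0.31 ± 0.44 in CKD and -0.50 ± 0.24 in Sham (SD, n = 2 each, exact two-sided permutation p = 0.667).

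Within the 5 3p members, miR-200a-3p was the most abundant in all 4 libraries. It made up 57.1% and 47.5% of their reads in CKD and 58.5% and 51.5% in Sham. miR-200b-3p followed, with 26.4% and 34.2% in CKD and 25.7% and 26.8% in Sham. The neighbours miR-200c-3p and miR-429-3p could not be ordered, since miR-200c-3p was higher in 3 libraries and lower in the first Sham library. Adaptor ligation captures some miRNAs better than others, so such orders describe reads and not molecules.

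**Figure D4:**
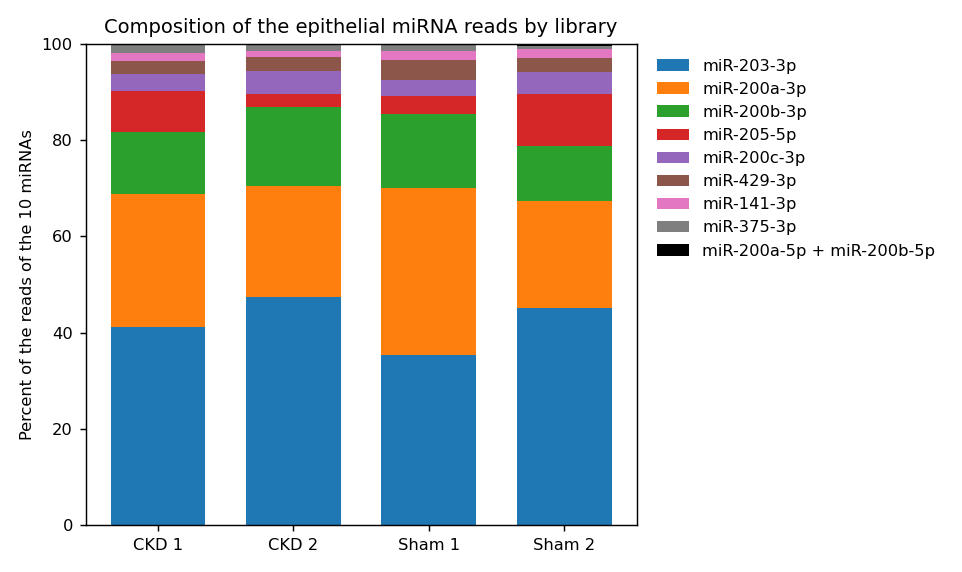
Stacked bars of the percent of reads of the 10 miRNAs that each one contributed, by library, with CKD libraries on the left. miR-203-3p and miR-200a-3p made up the largest blocks in all 4 libraries, and miR-205-5p ranged from 2.76% in the second CKD library to 10.7% in the second Sham library.

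miR-203-3p, the keratinocyte miRNA, was the most abundant of the 10. It had 106 and 76.4 CPM in the CKD libraries and 19.1 and 26.7 CPM in the Sham libraries, means of 91.0 ± 20.6 CPM in CKD and 22.9 ± 5.37 CPM in Sham (SD, n = 2 each). Its deposited rise was 1.95 (SE 0.38, limma adjusted p = 0.0016). After TMM scaling its levels were 58.4 and 46.0 in CKD and 39.8 and 38.3 in Sham, which did not overlap, and the difference was 0.40 (95% interval -0.04 to 0.83, limma adjusted p = 0.23). Of the 8 tested members, only miR-203-3p and miR-200c-3p were higher in both CKD libraries after TMM scaling. Over all tested entries 28.0% were, and 31.5% were lower in both. On the deposited scale 7 of the 8 did not overlap, against 91.2% of all entries. In the first Sham library miR-203-3p and miR-200a-3p, with 334 and 328 reads, were not distinguishable in level. The other arm of its hairpin, miR-203-5p, had 0.34 and 0.60 CPM in CKD and no reads in either Sham library. An entry chosen after its values were seen, miR-203b-3p from the opposite strand of the same locus, had 0.63 and 0.30 CPM in CKD and 0.11 and 0.36 CPM in Sham.

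miR-205-5p varied most within groups among the 8 tested, and its groups overlapped. It had 21.8 and 4.44 CPM in the CKD libraries, against 2.00 and 6.34 CPM in the Sham libraries. The first CKD library was 4.91 times the second, and the second Sham library was above the second CKD library. Counting error alone did not cover this spread, since the Wilson 95% intervals were 19.7 to 24.1 CPM and 3.54 to 5.58 CPM in CKD, and 1.44 to 2.78 CPM and 5.25 to 7.66 CPM in Sham. Such intervals cover counting error only, and they treat reads as independent molecules, which was not checked. The deposited difference was 1.25 (SE 0.58, limma adjusted p = 0.060) and that after TMM scaling -0.06 (95% interval -1.95 to 1.82, limma adjusted p = 0.96). Without the second CKD library miR-205-5p lay at 2.28 on the deposited scale (limma adjusted p = 0.0059). Relative to miR-203-3p, its level was 0.206 and 0.0581 in CKD and 0.105 and 0.238 in Sham, again overlapping. Its other arm, miR-205-3p, had no reads in 3 libraries and 0.06 CPM in the second CKD library.

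miR-375-3p had the lowest mean level of the 8 tested, on 70 and 36 reads in the CKD libraries and 13 and 7 reads in the Sham libraries. Its levels were 3.99 and 2.16 CPM in CKD, against 0.74 and 0.41 CPM in Sham, so the groups did not overlap. The ratio of the mean CPM was 5.35, the highest of the 8, on the fewest reads in all. With means of 3.075 CPM in CKD and 0.575 CPM in Sham, miR-375-3p passed the filter of 1 CPM only through CKD. Its ratio and its call as a rise are therefore not independent of that filter. Its deposited rise was 1.34 (SE 0.35, limma adjusted p = 0.0047), a call lost without the second Sham library (limma adjusted p = 0.056). The difference after TMM scaling was 0.43 (95% interval -0.47 to 1.34, limma adjusted p = 0.44). miR-375-3p and miR-141-3p could not be ordered by level, since miR-141-3p was higher in 3 libraries and lower in the second CKD library.

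As summed levels, the 7 entries of the miR-200 family had 125 and 78.2 CPM in CKD and 32.1 and 25.7 CPM in Sham, a 3.52-fold ratio of the means. The 3 others together had 131 and 83.0 CPM in CKD and 21.8 and 33.4 CPM in Sham, a 3.88-fold ratio. Both had an exact two-sided permutation p of 0.333, the smallest possible, also after adjustment over the 3 sums tested, of which the third was all 10 miRNAs together. After TMM scaling the log2 ratios of the sums were 0.16 and 0.39, with exact two-sided permutation p of 0.667 and 0.333. As a share of reads other than miR-143-3p, all 10 held 0.0435% and 0.0272% in CKD and 0.0267% and 0.0215% in Sham. Per 1000 reads of miR-126a-3p, the main endothelial miRNA, a scale chosen after its values were seen, they held 34.1 and 21.6 reads in CKD and 24.4 and 22.5 reads in Sham. On that scale the second CKD library lay below both Sham libraries.

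Other epithelial miRNAs were set beside them from a list of 17, of which 14 were listed in the files and 10 passed the filter. All 10 rose on the deposited scale, where 82.9% of all entries did, and 1, miR-224-5p, rose after TMM scaling (limma adjusted p = 0.039), where 1.88% did. miR-224-5p had 1122 and 1185 CPM in CKD and 181 and 259 CPM in Sham. Of the 10, miR-215-5p passed the filter only through CKD, with means of 1.865 CPM in CKD and 0.405 CPM in Sham. Whether reads of this list came from epithelium was not tested. The median differences of the 10 were 2.03 on the deposited scale and 0.65 after TMM scaling. Beside them stood 1.44 and 0.19 for the 8 members and 1.34 and 0.00 for all entries. The most abundant of the list were miR-224-5p, miR-31-5p, miR-194-5p and miR-192-5p, each above every member in all 4 libraries. miR-192-5p, a miRNA of kidney and gut epithelium, had 210 and 135 CPM in CKD and 31.3 and 44.0 CPM in Sham, and lay at 0.59 after TMM scaling (limma adjusted p = 0.17). miR-194-5p, which shares its cluster, had 302 and 260 CPM in CKD and 65.8 and 94.9 CPM in Sham, and lay at 0.24 after TMM scaling (limma adjusted p = 0.29). miR-31-5p had 398 and 360 CPM in CKD and 98.1 and 156 CPM in Sham, and lay at 0.03 after TMM scaling (limma adjusted p = 0.90). Among other arms of the members' hairpins on this list, miR-141-5p had 0.18 CPM in the second CKD library and no reads elsewhere.

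Markers of other cell types also differed between libraries of a group. The 2 smooth muscle markers together had 479329 and 483550 CPM in CKD and 831603 and 772424 CPM in Sham, and on the deposited scale they moved in opposite directions. miR-143-3p fell (limma adjusted p = 2.5e-04) and miR-145a-5p rose (limma adjusted p = 0.0043). The level of miR-145a-5p was 67970 and 75726 CPM in CKD and 33419 and 47242 CPM in Sham, and both fell after TMM scaling (limma adjusted p = 0.012 for miR-143-3p and 0.044 for miR-145a-5p). The 2 endothelial markers together had 9989 and 9767 CPM in CKD and 2899 and 3411 CPM in Sham. Hepatocyte miR-122-5p had 161 and 56.0 CPM in CKD and 1.43 and 25.5 CPM in Sham, with the first CKD library highest and the second Sham library above the first. The 3 red cell markers together had 1008 and 4754 CPM in CKD and 213 and 810 CPM in Sham, highest in the second CKD library. The 4 leukocyte markers together had 409 and 446 CPM in CKD and 75.9 and 219 CPM in Sham. The 3 kidney and gut markers summed to 514 and 396 CPM in CKD and 97.4 and 139 CPM in Sham. The 5 striated muscle markers summed to 1204 and 972 CPM in CKD, against 509 and 622 CPM in Sham, and the 3 neural and endocrine markers to 281 and 356 CPM in CKD, against 74.1 and 115 CPM in Sham. After TMM scaling no tested marker outside smooth muscle was called by limma. Median log2 differences were then 0.08 (endothelium), -0.0017 (leukocytes), 0.61 (red cells) and 2.19 (hepatocytes, miR-122-5p only). They were 0.29 for kidney and gut, 0.26 for neural and endocrine, and -0.64 for striated muscle markers. Of these markers, only miR-122-3p was at 0 in any library, the first Sham one. Their part in the levels of the epithelial miRNAs was not tested.

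The nearest patterns over the 4 libraries were sought for miR-200a-3p, the most abundant of its family, and for miR-203-3p, miR-205-5p and miR-375-3p. Candidates were 250 other named miRNAs with a mean of at least 10 CPM, compared by Euclidean distance of centred log2(CPM + 1) values. For miR-203-3p the nearest were miR-218-5p (0.10), miR-1843a-5p (0.10) and miR-1843b-5p (0.10), against a median distance of 0.62. For miR-200a-3p they were miR-744-5p (0.54), miR-532-3p (0.54) and miR-674-3p (0.56), against a median of 1.04. miR-375-3p was nearest to miR-133b-3p (0.39), miR-744-5p (0.39) and miR-532-3p (0.39), against 0.84. No entry came close to miR-205-5p, whose nearest were miR-322-5p (1.17), miR-150-5p (1.21) and miR-450a-5p (1.22), against a median of 1.55. Profiles over 4 libraries share the shift of each library, so these distances are descriptions only.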

How the data were processed

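The deposited values were treated as counts per 1000000 (CPM), since they carry 2 decimals and each library sums to about 1000000; the labels name no unit. In 3 of the 4 files the names precede the values in a single column, and the order of each was used to join them. Per the submitters' processing notes the tools include Bowtie (no version) and the build is GRCm38. How miRNAs were counted and annotated is not stated. Every non-zero value (100%) was a whole number of reads within 0.005 CPM, giving 17532748 and 16658810 reads for CKD and 17520690 and 16878392 for Sham over the listed entries.

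limma 3.58.1 (R 4.3.3, mean-variance trend, group as sole term) took log2(CPM + 1) of the 479 entries averaging 1 CPM or more. Calls needed a two-sided Benjamini-Hochberg adjusted p under 0.05 over all 479. TMM factors came from edgeR 4.0.16; edgeR and DESeq2 1.42.0 were also run on the recovered reads. Other scalings, filters, pseudocounts, a replicate block and the omission of each library were tried. Sums and ratios had exact permutation tests (Python 3.11.15). Members and lists were chosen with earlier results of these data known. The text names the members, other arms of their hairpins, the 4 most abundant of the other epithelial list, the cell type markers, and the 3 nearest profiles to miR-200a-3p, miR-203-3p, miR-205-5p and miR-375-3p. Sequences are from RefSeq and overlapping genes from GENCODE, both on GRCm38. The labels give no batch. Chi-square per degree of freedom between replicate libraries was 499 in CKD and 579 in Sham, above counting noise.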

Additional observations from a re-analysis of the deposited data

How the results depend on the processing

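Of 479 entries 402 were called on the deposited scale, against 37 with TMM, 32 with median-of-ratios and 29 with upper-quartile scaling, 27 with totals excluding miR-143-3p, 31 by edgeR and 77 by DESeq2. At a minimum mean of 10 CPM 241 of 265 tested entries were called. The 7 epithelial calls became 0 in each of these scalings and in edgeR and DESeq2. They became 4 with no filter, where 313 of 1152 entries were called, and 3 at 10 CPM, where only 3 members are tested. Replicate numbers were shared between groups, but with 2 pairs, whose deviations correlated at 0.0999 on the deposited scale and 0.118 with TMM, they were not taken as pairing. A replicate block gave 352 entries and 8 epithelial miRNAs, adding miR-205-5p (limma adjusted p = 0.0043), and with TMM scaling 10 entries and 0 epithelial miRNAs. Leaving out 1 library gave 143 to 392 entries and 2 to 8 epithelial miRNAs on the deposited scale, and 5 to 13 entries and 0 epithelial miRNAs with TMM scaling; the lone library is assumed to vary like the other group. The log2 difference of miR-141-3p reversed to -0.040 with TMM, with or without the block, -0.019 with median-of-ratios and -0.097 with upper-quartile scaling. miR-429-3p reversed to -0.054 with TMM, with or without the block, -0.029 with median-of-ratios, -0.13 with upper-quartile scaling, -0.11 by edgeR and -0.075 by DESeq2. miR-205-5p reversed to -0.064 with TMM, with or without the block, -0.036 with median-of-ratios and -0.14 with upper-quartile scaling. On the deposited scale no omission of 1 library reversed a tested member: differences ran from 1.19 to 2.11 for miR-200a-3p, 1.70 to 1.99 for miR-200b-3p, 0.50 to 1.42 for miR-141-3p, 0.99 to 1.37 for miR-429-3p and 0.21 to 2.28 for miR-205-5p. With omission and TMM scaling together, the lowest were -0.39 for miR-200a-3p, -0.0031 for miR-200b-3p, -0.35 for miR-141-3p, -0.41 for miR-429-3p and -0.94 for miR-205-5p. The log2 difference in the ratio of the 2 clusters, 0.01, was -0.33 with 1 CPM added to each term and ran from -0.41 to 0.43 over the omissions. Over the omissions that of the seed groups ran from -0.12 to 0.51, and that of the arms, which rests on 1 to 14 reads of the 5p arms, from -1.07 to 1.37. With 1 CPM added to each term they were 0.07 and 1.52. The cause of these changes was not tested. Of 163 values of single members over all alternatives, 67 kept direction and side of the threshold, 71 were weaker, 2 stronger and 23 reversed. At 1 read per 0.057 to 0.060 CPM, the 5p arms, at 11 reads each, are too shallow for any comparison.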
